A study of Clytia hemisphaerica and Astroides calycularis and Pocillopora acuta with 17 samples.

Results

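The cells described here are the PCSK5-like cells of the planula larva of the coral Pocillopora acuta. They were chosen by 1 transcript, that of PCSK5-like (XP_027047088.1), a gene named after the proprotein convertases, enzymes that cut peptide hormones out of longer precursor proteins. A cell was a member if it held at least 2 unique molecular identifiers (UMIs, each standing for 1 captured RNA molecule) of this gene and if these were at least 0.3% of all its UMIs. By this rule 67 of 9734 kept cells were members, 27 of 4809 in colony C3 and 40 of 4925 in colony C6. The series holds 50609 barcodes in 12 matrices of 3 cnidarian species, and only the 3 Pocillopora matrices were used.

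Planulae were released by 2 colonies, C3 and C6, which the study describes as fragments of the same genotype kept in aquaria, and 10 to 15 larvae were pooled for each dissociation. The cells were then fixed in ACME, a solution with acetic acid and methanol. No treatment was applied, no cells were sorted, and the larvae carried algal symbionts. C3 gave 1 library of single-cell RNA with the 10x Genomics method, and C6 gave 2 libraries that are technical replicates of 1 dissociation and were summed. There are thus 2 biological samples, 1 for each colony, and their larvae were released at different times, so a difference between colonies and a difference between dissociations cannot be told apart.

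The label of these cells is GLWamide neurons. GLWamides are short amidated neuropeptides of cnidarians that end in glycine, leucine and tryptophan, are cut from a precursor with many copies of the peptide, and are known to trigger settlement and metamorphosis in planulae of several species. Proprotein convertases and carboxypeptidases carry out the first steps of this processing. ELAV encodes an RNA-binding protein used as a general marker of neurons, and AshA a transcription factor of the achaete-scute family, whose members act in neurogenesis.

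The kept cells held 5834564 UMIs in the C3 library and 2931911 and 2618813 in the C6 libraries, with medians of 820, 788 and 745.5 UMIs per cell. Mitochondrial UMIs made up 0.441% to 0.637% of these totals. Members had a median of 1458 UMIs in C3 and 1038 in C6, against 818 and 762 in the other kept cells, so a transcript was more easily seen in a member than in another cell. The libraries shared 3 or 4 barcodes in each pair, and no member's barcode occurred among the members of another library. Members were 0.561% of kept cells in C3 (exact 95% interval 0.370 to 0.816) and 0.812% in C6 (0.581 to 1.10), with 0.636% and 0.997% in the 2 libraries of C6. These intervals cover counting error only, and they overlap.

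PCSK5-like chose the members, so its values are a description. It gave 428 UMIs in the members of C3 and 740 in those of C6, and 36 and 29 in all other kept cells. A member held 2 to 83 UMIs of it, a median of 13, or 0.316% to 5.60% of its UMIs. Among cells that were not members 29 held 1 UMI and 10 held at least 2. The members nearest to the limit had 0.316%, 0.352% and 0.369% of their UMIs from this gene, and the nearest cells outside had 0.284%, 0.257% and 0.238%. The domain annotation of the study gives this protein a cysteine-rich furin-like repeat. PCSK5-like is thus a transcript of few cells, and nearly all of it was in the members.

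Checked against the GLWamide precursor (XP_027060553.1), the label held for only a part of the cells. The precursor had UMIs in 6 of 27 members in C3, or 22.2% (exact 95% interval 8.62 to 42.3), and in 13 of 40 in C6, or 32.5% (18.6 to 49.1). Cells marked by gastroderm genes, which line the larval gut and should lack a neuropeptide, had a precursor UMI in 0.464% of 431 cells in C3 and 0.651% of 768 in C6, at medians of 1118 and 960 UMIs per cell. With every cell thinned to 500 UMIs, the shares of members were 27.3% of 22 cells and 29.4% of 34, after 5 and 6 shallower members were left out. The remaining 48 members held no precursor UMI. They are therefore called PCSK5-like cells here, and not GLWamide neurons.

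The precursor was nevertheless concentrated in the members. It gave 165 UMIs in the members of C3 and 468 in those of C6, against 18 and 39 in all other cells, and members held 91.7% of its 690 UMIs. In CPM, the gene's UMIs per 1000000 UMIs of the summed cells, that is 4357 in C3 and 9716 in C6, against 3.12 and 7.13 in the other cells. The log2 fold change was 9.84 (standard error, SE, 0.31, adjusted p 1.7e-202 by edgeR over 2 samples). When the precursor itself was used with the same limits to choose cells, 23 cells passed, of which 19 were members, so the rules shared 82.6% of the precursor cells and 28.4% of the PCSK5-like cells.

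The members fell into kinds by the precursor and by Short-tm (XP_027053553.1). The study lists Short-tm for its GLWamide cells and names it for a short protein with a transmembrane stretch. The same limits of 2 UMIs and 0.3% were used for both transcripts, and the kinds were drawn after the values were seen, so they are described without a test. The precursor alone passed in 18 members, 6 in C3 and 12 in C6. Short-tm alone passed in 36 members, 16 in C3 and 20 in C6. Both passed in 1 member, a C6 cell, and neither passed in 12, which were 5 in C3 and 7 in C6. In precursor cells the precursor made up 1.01% to 6.54% of a cell's UMIs, and in Short-tm cells Short-tm made up 0.489% to 18.9%. No Short-tm cell held a precursor UMI, and of the precursor cells 1 held Short-tm UMIs, 2 in number. Median depth was 1194 UMIs per cell in precursor cells, 1448 in Short-tm cells and 1824 in neither cells of C3, and 1038, 890.5 and 1588 in those of C6, so the cells with neither transcript were not the shallow ones.

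**Figure D1:**
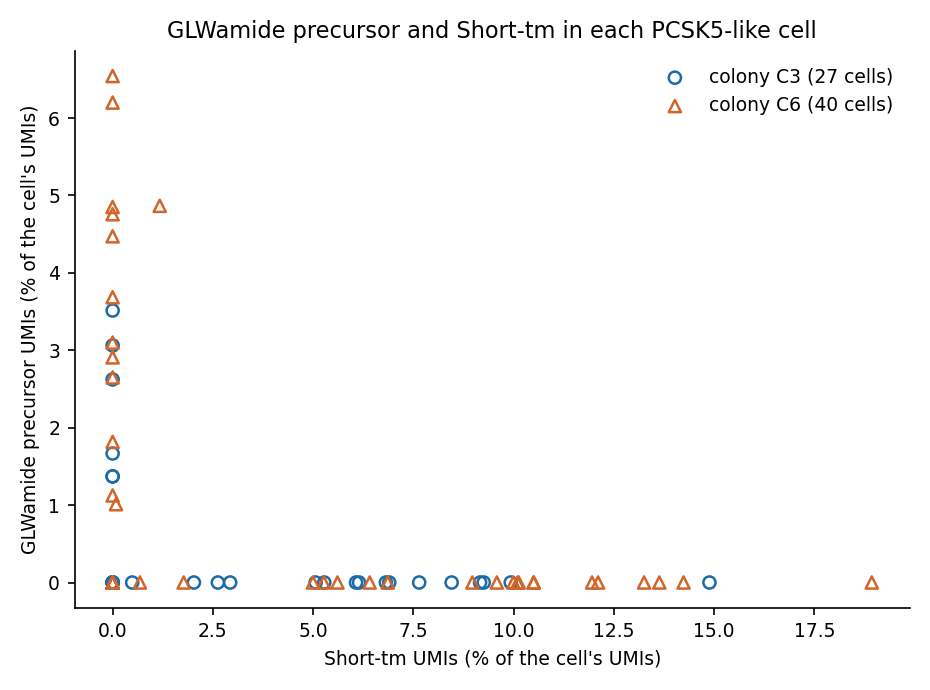
Each point is 1 of the 67 PCSK5-like cells, with Short-tm on the x axis and the GLWamide precursor on the y axis, both as a percentage of the cell's UMIs, and circles and triangles for colonies C3 and C6. Points lie along either axis, up to 18.9% for Short-tm and 6.54% for the precursor, and 1 cell of C6 lies clearly away from both.

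The neuronal markers were higher in members than in other cells. ELAV (XP_027049686.1) had UMIs in 12 of 27 members in C3 and in 20 of 40 in C6, that is 44.4% and 50%, against 8.24% and 9.93% of other cells and 8.82% and 7.42% of gastroderm-marked cells. Its level was 819 CPM in C3 and 768 in C6, against 91.3 and 130 in other cells, a log2 fold change of 2.27 (SE 0.31, adjusted p 5.5e-11 by edgeR). AshA (XP_027048862.1) had UMIs in 51.9% and 55.0% of members, and in 14.3% and 13.7% of other cells. It rose by 1.48 on the log2 scale (SE 0.28, adjusted p 5.9e-06, edgeR), from 270 and 280 CPM in other cells of C3 and C6 to 1136 and 1163 in members. Both genes were found in all 3 kinds. ELAV was in 55.6% of precursor cells, 47.2% of Short-tm cells and 41.7% of neither cells, and AshA in 66.7%, 52.8% and 33.3%. The neither cells were unlike each other in this. Of 8 that shared a set of transcripts described below, 1 held ELAV or AshA, while all of the other 4 did.

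The precursors of other neuropeptides differed from each other in the members. The RFamide precursor (XP_027051563.1) and the HFRIamide precursor (XP_027045495.1), each for a further family of amidated peptides, had 0 UMIs in all 67 members. In other cells RFamide had 2825 UMIs in C3 and 2884 in C6, and HFRIamide 96 and 1971. With a floor of 3 UMIs over all members, RFamide was at least 14.6-fold lower in members (adjusted p 2.6e-18, edgeR). Of the 2067 HFRIamide UMIs in other cells, 1819 were in 2 cells of C6, both of which passed the limits for Short-tm, so its call as lower (adjusted p 2.5e-07, edgeR) rests on those cells and no fold is given. It was not called by DESeq2 (adjusted p 0.0704), with no replicate block (0.31) or without the first C6 library (0.61). Damicornin (XP_027051004.1), named after an antimicrobial peptide of Pocillopora, had 4 and 9 UMIs in members, 106 and 187 CPM against 29.8 and 21.2 in other cells, and was seen in 14.8% and 15% of members against 2.64% and 1.95% of others. Its log2 fold change of 2.00 had an adjusted p of 0.053 (edgeR), and it was called higher in 4 of the alternatives (adjusted p 0.0118 to 0.0479). The GVWamide precursor (XP_027059473.1) had 102 UMIs in members of C3 and 0 in those of C6, and all 102 were in a single cell, so its fitted log2 fold change of 1.69 (adjusted p 1.2e-04, edgeR) rests on that cell.

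The 2 to 4 markers taken for each other cell type were at 0 in the members or lower there than in other cells. No member had a UMI of the 4 apical, 3 cnidocyte, 2 digestive filament, 3 gland mucous, 2 neurosecretory 1 and 2 neurosecretory 2 markers. In other cells of C3 and C6 cnidocyte markers together had 1695 and 1329 CPM and neurosecretory 2 markers 855 and 1633. Apical markers had only 53.5 and 115 CPM there, and digestive filament markers 76.9 and 63.5. No apical or digestive filament marker was called lower, so their absence from members could not be told from a low level. Of the 3 gland mucous markers 1 was called lower by edgeR, and of the 3 cnidocyte markers 2. Of the 2 neurosecretory 1 markers 1 was called lower, as was 1 of the 2 neurosecretory 2 markers. DESeq2 called 1 gland mucous and 1 cnidocyte marker lower, and 0 of either neurosecretory type. For the markers not called, absence could likewise not be told from a low level. The 3 gastroderm markers summed to 158 CPM in members of C3 and 62.3 in those of C6, against 1028 and 2064 in other cells. The 3 epidermis markers summed to 52.8 and 62.3 CPM in members, against 742 and 478. Minicollagen Ncol3 (XP_027042144.1), a protein of the stinging capsule, and ShK-like (XP_027047975.1), a secreted protein of neurosecretory 2 cells, were thus at least 39.0-fold and 34.7-fold lower in members. XP_027051940.1, which has a predicted signal peptide and is on the study's list of genes enriched at the aboral end, was at least 144-fold lower, with 17443 and 38936 UMIs in other cells and 0 in members. The test called these 3 genes lower in edgeR and did not in DESeq2. The last does not stand for the aboral list of 126 genes. That list summed to 75950 and 74077 CPM in members of C3 and C6, against 20616 and 21241 in other cells. Of its 84 tested genes 4 were higher and 22 lower by edgeR, beside 2.01% and 5.97% of all genes. The study's longer list of 24 neurosecretory 2 genes had 4 UMIs in members of C3 and 23 in those of C6. Its level was 106 and 478 CPM in members against 1465 and 2535 in other cells. Of the 23 UMIs in C6 members, 18 were in neither cells.

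For each of 11836 genes, UMIs summed over members were compared with those summed over all other kept cells of the same colony. By an adjusted p under 0.05 and a change of over 2-fold, 238 genes were higher in members, 2.01% of those tested, and 707 were lower, 5.97%, together 7.98%. In both colonies 236 of the higher genes were higher and 705 of the lower genes were lower, and 123 of the higher genes had at least 10 UMIs in members of each colony. Of the 707 lower genes 277 had 0 UMIs in members. The members' sums were 37867 and 48166 UMIs against 5770988 and 5468109, so a lower level was harder to see than a higher one. The split of the calls depended on the scaling, since scaling by library size alone raised the median log2 fold change of all genes by 0.58 and called 355 genes higher and 326 lower.

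The study lists 16 genes for its GLWamide cell cluster. Besides PCSK5-like, 13 of the other 15 were higher in members by the test, against 2.01% of all genes, and none was lower. Their median log2 fold change was 4.20, and that of all genes was -1.17, or 0.17 when genes without a UMI in members are put at the bound that 3 UMIs give. The study chose this list on these samples, so the count is not independent evidence of direction. Its cluster was formed over many genes and not by PCSK5-like alone, so it need not hold the same cells as the members. The study assigns GVWamide neurons of this species to the same cluster. In each colony all 15 had a higher level in members than in other cells.

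**Figure D2:**
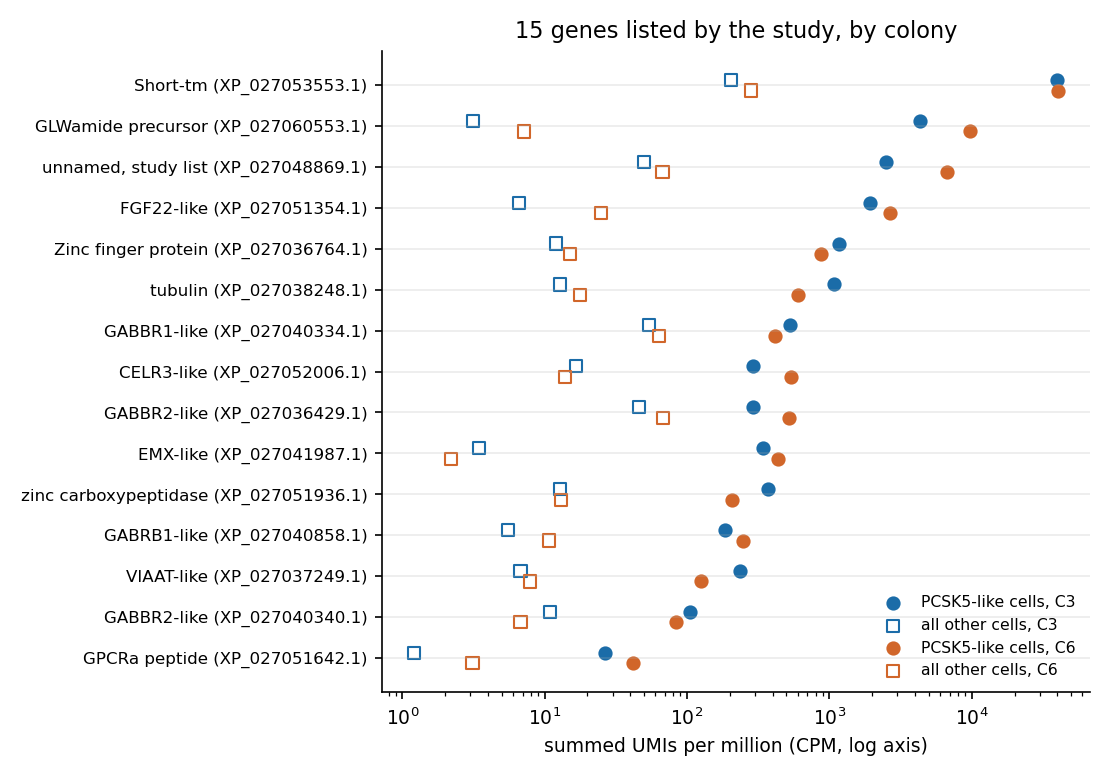
Levels of the 15 genes that the study lists besides PCSK5-like, in CPM on a log axis, with filled circles for PCSK5-like cells, open squares for all other kept cells, blue for C3 and orange for C6, and no error bar since each point is 1 sample. In each colony every circle lies to the right of the square of its gene, and Short-tm is the most abundant at 39586 CPM in C3 and 40153 in C6.

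Of the genes of peptide processing and of signals sent to other cells, FGF22-like (XP_027051354.1) had the largest difference after the precursor. It is named after the fibroblast growth factors, secreted ligands of receptor tyrosine kinases. It had 73 UMIs in members of C3 and 128 in those of C6, against 38 and 136 in all other cells, or 1928 and 2657 CPM against 6.58 and 24.9. Its log2 fold change was 6.79 (SE 0.32, adjusted p 9.7e-93, edgeR), and 70.4% and 72.5% of members had a UMI against 0.397% and 1.25% of other cells. A zinc carboxypeptidase (XP_027051936.1), of the enzyme family that trims basic residues from cut peptides, had 14 and 10 UMIs in members, 370 and 208 CPM against 12.8 and 13, a log2 fold change of 3.85 (adjusted p 9.3e-08, edgeR).

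Short-tm gave the most UMIs of the study's list, 1499 in members of C3 and 1934 in those of C6, against 1177 and 1550 outside the members (6.78 on the log2 scale, adjusted p 1.2e-195, edgeR). It was not particular to the members, which held 55.7% of its 6160 UMIs. By the same limits 96 cells passed for Short-tm, 37 of them members and 59 not. Of those 59 cells 4 held a PCSK5-like UMI, 5 held FGF22-like and 41, or 69.5%, held the unnamed gene XP_027045934.1.

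Receptors and a transporter of amino acid transmitters were higher in members. GABBR1-like (XP_027040334.1) and GABBR2-like (XP_027036429.1) are named after the subunits of the metabotropic GABA-B receptor, and GABRB1-like (XP_027040858.1) after a subunit of the GABA-gated chloride channel. GABBR1-like had 20 UMIs in members of either colony, 528 and 415 CPM against 53.9 and 63.8 in other cells, a log2 fold change of 2.40 (SE 0.36, adjusted p 1.35e-09, edgeR). GABBR2-like had 11 and 25 UMIs, a log2 fold change of 2.27 (adjusted p 5.7e-08, edgeR), and GABRB1-like had 7 and 12 UMIs and a log2 fold change of 4.16 (adjusted p 4.8e-06, edgeR). These levels were low, and 25% to 37.0% of members had a UMI of the former pair. VIAAT-like (XP_027037249.1), named after the carrier that loads GABA and glycine into synaptic vesicles, had 9 and 6 UMIs, 238 and 125 CPM against 6.76 and 7.86, a log2 fold change of 3.99 (SE 0.88, adjusted p 1.5e-04, edgeR).

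The remaining receptors on the list had few UMIs and were not called. A second GABBR2-like gene (XP_027040340.1) had 4 UMIs in members of either colony and an adjusted p of 0.089, and a peptide receptor of class A (XP_027051642.1) had 1 and 2 UMIs and an adjusted p of 0.45 (edgeR). Their levels were 106 and 83.0 CPM and 26.4 and 41.5 CPM, and their log2 fold changes 2.83 and 3.38. The former was called with the 3 libraries apart (adjusted p 0.0189) and the latter without the second C6 library (0.0465). Outside the list, XP_027055846.1, whose Astroides ortholog carries a rhodopsin-family receptor domain, had 22 and 57 UMIs and a log2 fold change of 4.75 (adjusted p 3.2e-47, edgeR). XP_027042758.1, whose Astroides ortholog has the domains of a neurotransmitter-gated ion channel, had 18 and 13 UMIs (3.95, adjusted p 1.7e-10, edgeR), all in Short-tm cells. Among 13 tested genes with transmitter receptor domains 4 were higher and 1 lower, where 2.01% of all genes were higher and 5.97% lower. The higher ones were XP_027042758.1 and, from the study's list, GABBR1-like, GABBR2-like and GABRB1-like, so the count largely repeats genes given above. With scaling by library size 5 of the 13 were higher and 0 lower, beside 355 and 326 of all 11836 genes. Both this domain list and the others were drawn up with results known and cover only genes that the study annotated.

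Of the regulators of transcription on the list, both were higher in members. EMX-like (XP_027041987.1), a homeodomain factor named after the empty spiracles genes, had 13 and 21 UMIs in members and 20 and 12 in all other cells, in 33.3% and 35% of members and 0.105% and 0.102% of other cells. Its level was 343 and 436 CPM against 3.47 and 2.19, a log2 fold change of 6.51 (SE 0.73, adjusted p 1.2e-16, edgeR). A zinc finger protein (XP_027036764.1) had 44 and 42 UMIs, 1162 and 872 CPM against 12 and 15 (5.63, adjusted p 7.2e-66, edgeR). Of 43 tested genes with homeodomain, forkhead, HMG-box, T-box or helix-loop-helix domains, 4 were higher and 6 lower, beside 2.01% and 5.97% of all genes. With scaling by library size 4 were higher and 1 lower, beside 355 and 326 of all 11836 genes. The 4 higher genes of the first count were EMX-like, XP_027044496.1, XP_027037055.1 and XP_027038905.1. All UMIs of XP_027037055.1 and XP_027038905.1 in members were in the neither cells, so these calls do not describe the precursor or Short-tm cells.

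Genes of cell shape and contact were also on the list. CELR3-like (XP_027052006.1), named after the CELSR family of cadherins with a receptor's transmembrane part, had 11 and 26 UMIs in members, 290 and 540 CPM against 16.6 and 13.9 (log2 fold change 4.20, SE 0.53, adjusted p 2.6e-13, edgeR). A tubulin (XP_027038248.1), a building block of microtubules, had 41 and 29 UMIs, 1083 and 602 CPM against 12.8 and 17.7 (5.16, adjusted p 6.0e-45, edgeR). An unnamed gene of the list, XP_027048869.1, had 94 and 324 UMIs, 2482 and 6727 CPM against 49.7 and 67.3 (5.59, adjusted p 6.8e-89, edgeR), and its level in C6 members was over that in C3 members.

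Of the 20 genes with the largest log2 fold change that had at least 10 UMIs in members of each colony, 8 were on the study's list and 9 had no annotation in the sources used. The latter had log2 fold changes of 4.20 to 6.36 (adjusted p at most 5.8e-09, edgeR). The most abundant, XP_027045934.1, had 2030 UMIs in members of C3 and 3021 in those of C6, or 53609 and 62721 CPM, against 752 and 869 CPM in other cells, and UMIs in 82.1% of members and 4.64% of other cells. XP_027059602.1 had 224 and 587 UMIs, 5915 and 12187 CPM against 71.7 and 124, in 79.1% of members and 1.76% of others. These shares were over those of every listed gene but PCSK5-like.

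Genes of protein synthesis were often called lower in members, but the call depended on scaling. Of 88 tested genes with a ribosomal protein domain 56 were lower and none higher, against 5.97% of all genes lower, with a median log2 fold change of -1.22 beside -1.17 for all genes. With genes without a UMI in members at the bound of 3 UMIs, these medians were -1.21 and 0.17. With scaling by library size 4 of the 88 were lower, beside 326 of all 11836 genes. By DESeq2 48 were lower, beside 253 of all genes. Against other ELAV or AshA cells 5 of 84 were lower, near the 4.74% of all genes in that comparison. Among 21 tested genes of ciliary motors and spokes 4 were lower and none higher, and with library size scaling or DESeq2 no gene of this list was called.

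Against other cells with neuronal transcripts the picture was much the same for the list. Non-members with at least 2 UMIs of ELAV and AshA together numbered 446 in C3 and 459 in C6, with medians of 1507 and 1410 UMIs. These comparisons share the members, so their results are not independent. Of 5616 genes tested, 171 were higher in members, 3.04%, and 266 lower, 4.74%, together 7.78%. Of the 15 listed genes 12 were higher and none lower, with a median log2 fold change of 3.47 against -0.31 for all genes. All 3 cnidocyte markers were called lower in members by edgeR, as was the 1 tested marker each of neurosecretory 1 and neurosecretory 2 cells. DESeq2 called none of these. The ELAV or AshA cells thus also held transcripts of stinging and neurosecretory cells.

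GABBR1-like had a larger difference here, 3.47 on the log2 scale (SE 0.40, adjusted p 6.2e-08, edgeR), since other ELAV or AshA cells had 28.9 and 39.4 CPM of it. GABBR2-like had 140 and 174 CPM in other ELAV or AshA cells and a log2 fold change of 1.08 (adjusted p 0.030, edgeR). It missed a call in 8 of the alternatives, including the fit with no replicate block. VIAAT-like had 38.2 and 43.0 CPM there and its log2 fold change of 1.80 had an adjusted p of 0.059. FGF22-like, EMX-like, Short-tm and CELR3-like were among the 10 largest calls, at 5.15, 4.51, 5.82 and 4.47. Damicornin had 93.0 and 69.2 CPM in other ELAV or AshA cells, with a log2 fold change of 0.60 (adjusted p 0.65, edgeR).

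**Figure D3:**
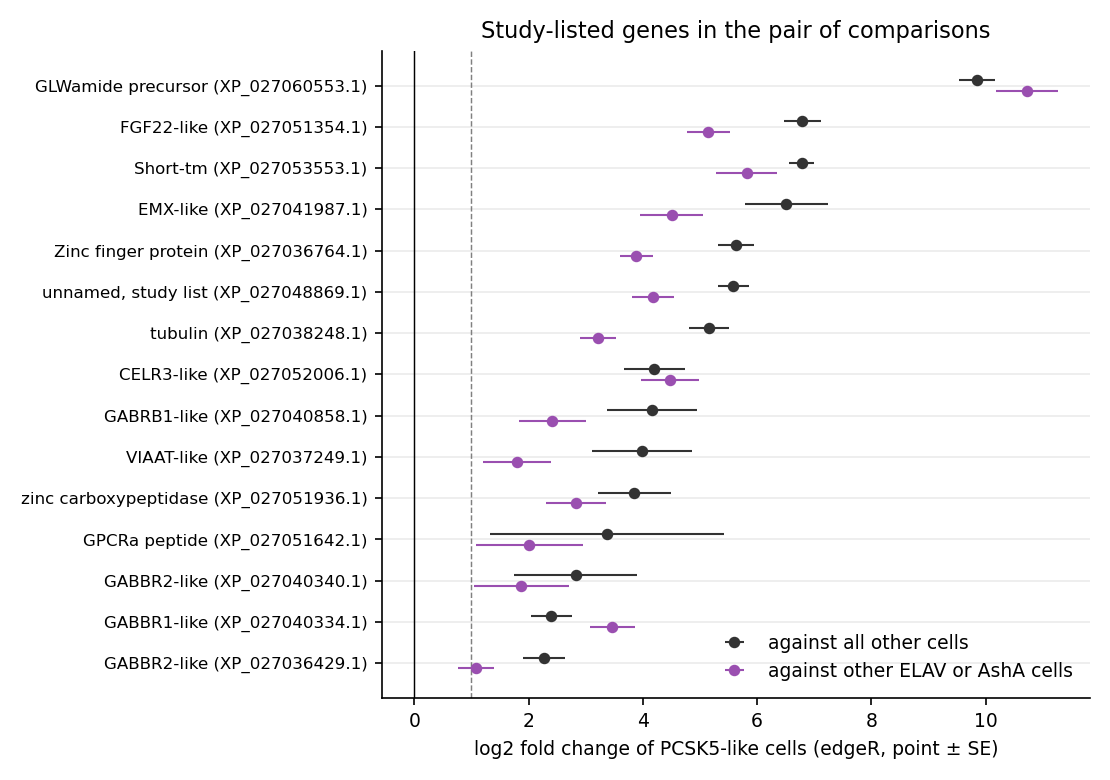
Log2 fold change of PCSK5-like cells for 15 listed genes. Black is against all other kept cells, and purple against other cells with at least 2 UMIs of ELAV and AshA together. Points are edgeR estimates with a standard error that draws on a spread shared across genes, and the dashed line is at 1. GABBR1-like, CELR3-like and the GLWamide precursor have the larger value against ELAV or AshA cells, 3.47, 4.47 and 10.7, and the other 12 genes the smaller.

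Within the members, the precursor and Short-tm cells shared most of the list. FGF22-like was found in 5 of 6 precursor cells and 14 of 16 Short-tm cells in C3, and in 10 of 12 and 18 of 20 in C6. EMX-like, the tubulin, GABBR1-like, GABRB1-like, VIAAT-like and the carboxypeptidase had UMIs in both kinds in both colonies. Of the 15 listed genes besides PCSK5-like, all 15 had a UMI in the 18 precursor cells and 13 in the 36 Short-tm cells. The exceptions were the precursor and the peptide receptor XP_027051642.1, whose 3 UMIs were all in precursor cells. The way the kinds were drawn kept the precursor under its limits in Short-tm cells, and no UMI of it was found in them.

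Several genes differed between these kinds. XP_027048869.1 had 94 UMIs in precursor cells of C3 and 307 in those of C6, and 0 and 5 in Short-tm cells. The Short-tm cells nevertheless held more UMIs in all, 20239 and 21842 against 7233 and 14823. XP_027055780.1, a gene that the study lists as enriched aborally, had 186 and 359 UMIs in precursor cells and 0 and 2 in Short-tm cells, and was found in all 18 precursor cells. It also had 66 UMIs in 2 of the 5 neither cells of C3, and 22.9% and 24.4% of the other ELAV or AshA cells of C3 and C6 held it, at 6303 and 6244 CPM, so it was not particular to precursor cells. In Short-tm cells the unnamed XP_027036582.1 had 32 and 42 UMIs and XP_027060288.1 had 55 and 50, against 0 and 0 and 0 and 1 in precursor cells. XP_027045934.1 was in nearly all cells of both kinds, at 36575 CPM in precursor cells and 100129 in Short-tm cells, while XP_027059602.1 went the other way, at 25826 and 5200 CPM.

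The 12 members with neither transcript stood apart. None of the 15 listed genes besides PCSK5-like had a single UMI in them, although they held 21563 UMIs, nearly as many as the 21955 of the precursor cells. For the precursor and Short-tm, a level under the limits was fixed by the way these cells were drawn. Their share of PCSK5-like was lower, a median of 0.554% of a cell's UMIs against 1.07% in precursor cells and 1.54% in Short-tm cells, yet each held at least 4 UMIs of it. Only 1 of the 12 had XP_027045934.1, and none had XP_027059602.1.

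Of these 12 cells, 8 shared a set of 4 transcripts that no precursor or Short-tm cell held. XP_027053182.1 had 29 UMIs in neither cells of C3 and 26 in those of C6, XP_027057896.1 had 59 and 43, and XP_027038905.1 and XP_027037055.1, whose orthologs in Clytia and in Astroides carry a homeodomain, had 15 and 24 and 17 and 19. All 4 were found together in 7 cells, 3 of C3 and 4 of C6. In other kept cells XP_027053182.1 had 41 and 19 UMIs, in 15 cells in all, and none in the ELAV or AshA cells. Of these 8 cells 1 held an ELAV or AshA UMI. The other 4 of the 12 cells had none of the set, and all 4 had ELAV or AshA, 1 of them being the C3 cell with the GVWamide UMIs. The rule on PCSK5-like thus took in 1 group of cells in either colony that shares none of the study's other listed genes, and log2 fold changes of these transcripts above, such as 6.36 for XP_027053182.1 and 4.46 for XP_027038905.1, rest on UMIs of this group alone.

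**Figure D4:**
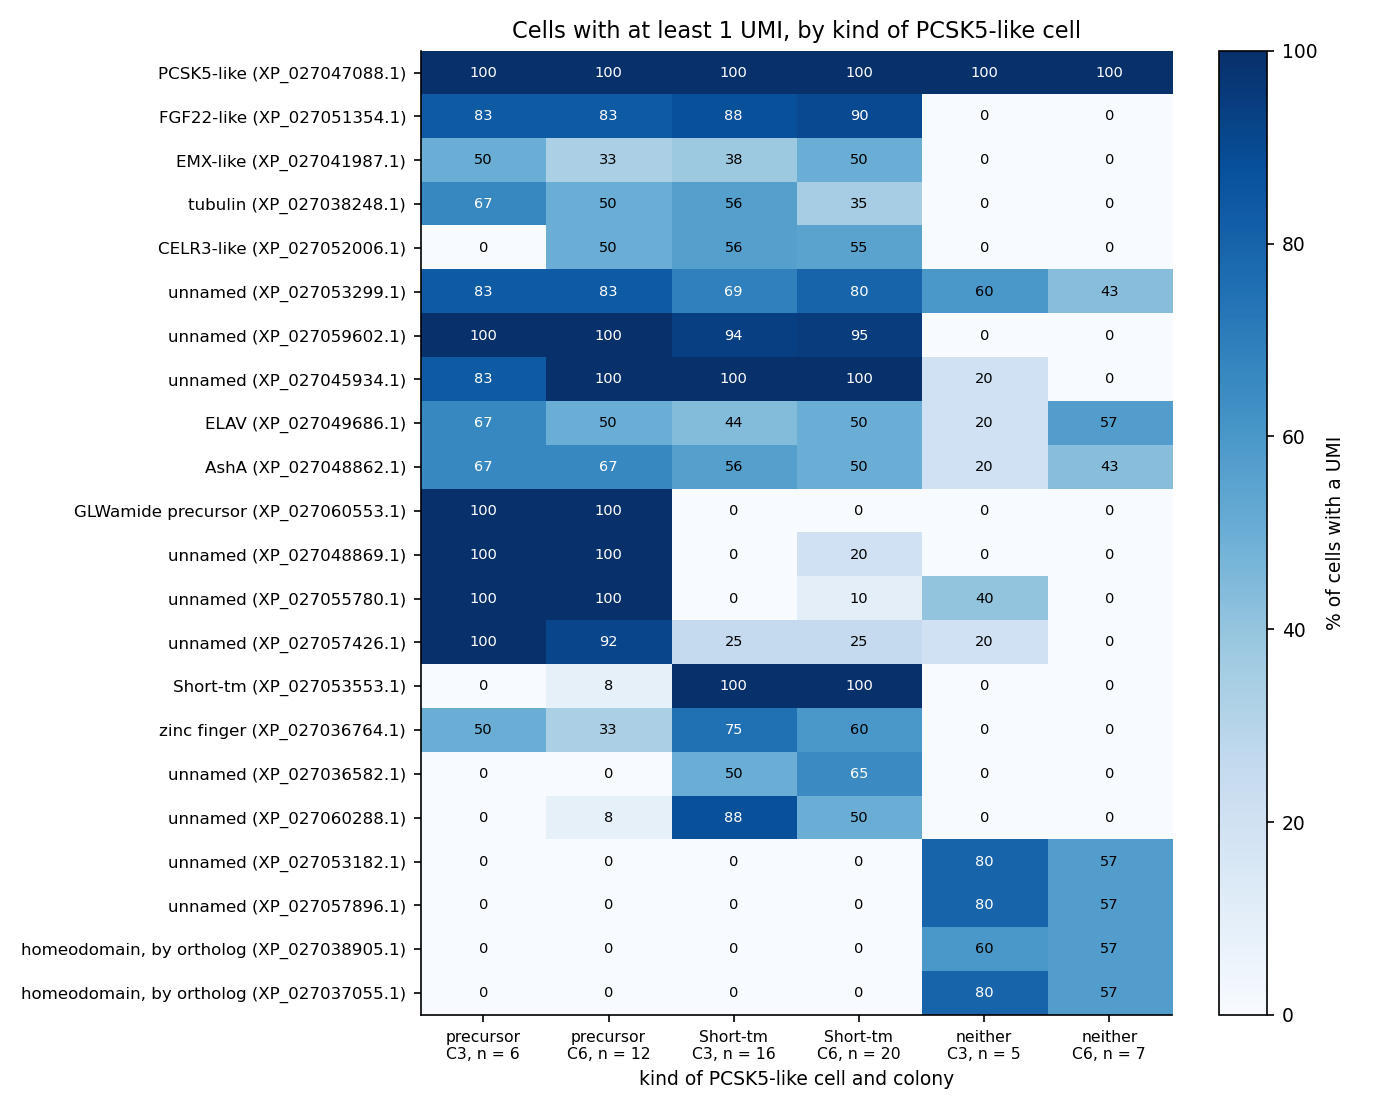
Percentage of cells with at least 1 UMI of each gene (rows) in precursor, Short-tm and neither cells of C3 and C6 (columns, with the number of cells), from 0 in white to 100 in dark blue, without the 1 cell that passed for both transcripts. The upper rows are shared by precursor and Short-tm cells, and most of the middle rows are higher in 1 of these kinds. The zinc finger among them is in 38.9% of precursor cells and 66.7% of Short-tm cells of both colonies together. The last 4 rows are at 0 outside the neither cells, where they reach 57% to 80%.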

How the data were processed

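Cells of dissociated Pocillopora planulae were fixed in ACME and sequenced with the 10x Genomics method. The authors mapped reads to the gene models of Pocillopora damicornis with STARsolo, with cell calling by EmptyDrops and a cutoff of 300 UMIs. The deposited matrices hold counts of UMIs, not normalized, for every gene in every called barcode. The versions of the aligner and genome are not given in the sources used here. Only the Pocillopora matrices were used. Cells with 300 to 20000 UMIs, 200 to 4000 genes and at most 5% mitochondrial UMIs were kept. The lower gene limit and the mitochondrial limit are those of the study. No doublet caller was run here. The mitochondrial feature, 0.441% to 0.637% of kept UMIs, counted in the limits but stayed out of sums and tests.

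UMIs were summed for each colony over members and over the other cells and compared with edgeR 4.0.16 in R 4.3.3 (TMM, filterByExpr, colony as block, quasi-likelihood test, 1 residual degree of freedom, Benjamini-Hochberg adjustment over all tested genes). PCSK5-like, and in the comparison with ELAV or AshA cells these 2 genes, were not tested. Standard errors are the log2 fold change divided by the square root of F. Since the block is the colony that both sums of a pair come from, members and other cells are paired by design. The p-values rest on 2 samples of 1 genotype and on an estimate of spread that edgeR shares across genes. They are thus not a measure of each gene's own spread between the colonies. DESeq2 1.42.0, other scalings, filters, limits and left-out libraries were alternatives. Intervals of shares are exact Clopper-Pearson.

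Named genes are the 16 of the study's list, ELAV, AshA and 4 other precursors, and the 20 largest higher and 5 most negative calls. They also include the 10 largest in the comparison with ELAV or AshA cells, and the 5 found in most members among genes in under 5% of other cells. Unannotated ones are given as ranges apart from a few. Genes that mark kinds of members, domain lists and the kinds themselves were chosen after values were seen. The members and all lists were chosen with earlier results of these data known. Lists by product name were planned but could not be built, since the reference holds no names for this species. Names and domains come from the study's supplementary tables, and no sequence is shown. The deposited tables of other species were not analysed here.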

Additional observations from a re-analysis of the deposited data

Results flagged for a closer look

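The GVWamide precursor (XP_027059473.1) moved in opposite directions in the colonies. Against all other cells, members had a difference of 2609 CPM in C3 and -449 CPM in C6, and against other ELAV or AshA cells one of 2241 CPM in C3 and -2675 CPM in C6. All 102 UMIs in members of C3 were in 1 cell, which held neither the GLWamide precursor nor Short-tm. The difference between colonies was not tested, since each colony is 1 sample.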

How the results depend on the processing

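Counts of called genes moved by over 1.5 times under a few settings. Against all other cells, where 238 genes were higher and 707 lower, choosing cells by the precursor gave 68 and 294, and genes lower numbered 253 by DESeq2, 326 with library size only and 375 with no replicate block. Against other ELAV or AshA cells, where 171 were higher and 266 lower, DESeq2 gave 87 and 48, choosing by the precursor 56 higher, members with at least 1 UMI 115 lower, and leaving out cells over 3000 UMIs 155 lower. With at least 1 UMI as the rule, members were 0.957% of C3 and 1.22% of C6. Without either C6 library, 177 to 186 genes were higher and 522 to 574 lower against all other cells, and 163 to 177 and 188 to 283 against ELAV or AshA cells. Without C3 only technical runs were left, and no test could be run.

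Of 534 values of named genes against all other cells, 500 were counted as unchanged, and of 484 against ELAV or AshA cells, 449. Values of genes called in neither fit were counted as unchanged whatever their direction. Values from C6 alone had no test, and for called genes they were judged by direction only. With cells chosen by the precursor, the log2 fold change turned to -2.16 for Short-tm (XP_027053553.1), -2.97 for XP_027060288.1, -8.67 for XP_027037055.1, -8.60 for XP_027038905.1, -9.93 for XP_027039810.1, -7.80 for XP_027053182.1 and -12.74 for GVWamide (XP_027059473.1), and against ELAV or AshA cells to -3.46 for Short-tm and -1.86 for XP_027060288.1. With the 23 cells of that setting AshA, GABBR1-like, GABRB1-like, VIAAT-like, CELR3-like and the carboxypeptidase were not called, at log2 fold changes of 1.19, 1.70, 3.24, 3.50, 2.79 and 3.29 (1.48, 2.40, 4.16, 3.99, 4.20 and 3.85 for PCSK5-like cells). GVWamide was -1.55 by DESeq2 and -12.66 at 3 UMIs and 0.5%, and 2.46 against ELAV or AshA cells at 1 UMI. The causes were not tested. With 67 members, genes at low level could not be told from absent ones.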
